A study of Homo sapiens with 9 samples.

Results

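The transcriptome of unmodified H295R cells was described from the 3 libraries labelled wild type (WT), out of 9 libraries in the series. H295R is an established human line, derived from a carcinoma of the adrenal cortex, and is known for its steroid output. The other libraries carry the labels SGPL1 knockout (KO, 3 libraries) and SGPL1 overexpression (OE, 3 libraries), and SGPL1 encodes sphingosine-1-phosphate lyase. All cells were untreated and grew in DMEM/F12 with NuSerum, ITS and antibiotics to near confluence before polyadenylated RNA was sequenced. The ITS supplement supplies insulin, transferrin and selenium, so all 3 groups share that medium. The series' design text gives 3 biological replicates per group. The labels do not say whether the WT cells are a clone or a pool, nor whether these replicates came from separate cultures. The spread given here is therefore between libraries, and part of it may be technical.

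Adrenocortical cells turn cholesterol into hormones in a fixed order of places and enzymes. Cholesterol is taken up or made, carried into mitochondria by STAR, and cut to pregnenolone by CYP11A1. HSD3B, CYP17A1, CYP21A2 and the CYP11B enzymes then lead to aldosterone, cortisol or androgens, while SULT2A1 sulfates dehydroepiandrosterone. The nuclear receptor NR5A1 (steroidogenic factor 1) binds the promoters of many of these genes, ACTH acts through MC2R and cyclic AMP, and angiotensin II acts through AGTR1 and calcium.

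The promoters of CYP11A1 and CYP21A2 are shown because they hold a sequence of the kind NR5A1 is known to bind, and because NR5A1 and both genes were expressed in WT at the levels given further on. The 250 bases before each gene's start are from RefSeq (GRCh38.p14), written 5′ to 3′ on the gene's strand, with the matches in capitals. They lie at chr15:74367647-74367896 on the minus strand for CYP11A1 and at chr6:32038165-32038414 on the plus strand for CYP21A2.
CYP11A1: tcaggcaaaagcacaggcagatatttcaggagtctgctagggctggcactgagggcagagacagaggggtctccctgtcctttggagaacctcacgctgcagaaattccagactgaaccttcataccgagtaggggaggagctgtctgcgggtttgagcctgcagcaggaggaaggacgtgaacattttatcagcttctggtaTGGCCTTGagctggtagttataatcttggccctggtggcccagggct
CYP21A2: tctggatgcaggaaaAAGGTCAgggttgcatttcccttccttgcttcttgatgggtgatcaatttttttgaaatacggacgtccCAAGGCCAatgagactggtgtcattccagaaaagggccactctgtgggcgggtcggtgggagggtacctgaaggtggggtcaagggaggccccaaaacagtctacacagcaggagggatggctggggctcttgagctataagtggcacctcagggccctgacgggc
In CYP11A1 the capitals TGGCCTTG are the reverse complement of CAAGGCCA and begin 47 bases before the start. In CYP21A2 the capitals mark AAGGTCA, which begins 235 bases before the start, and CAAGGCCA, which begins 166 bases before it. Of the 57 genes on the lists of cholesterol import, steroid enzymes and redox partners, 44 had an entry in the promoter table. Searched on both strands, CAAGGCCA was in 2 of the 44 (4.55%), those shown, and in 1.7% of 15313 protein-coding promoters of the same length. AAGGTCA was in 5 of the 44 (CYP19A1, CYP21A2, H6PD, HSD3B1 and STS) and in 3.83% of protein-coding promoters. The cyclic AMP response element TGACGTCA was in 0 of the 44 and in 2.78% of protein-coding promoters. Among protein-coding genes at 10 RPKM or more, a unit explained below, the shares were 1.32% for CAAGGCCA, 2.65% for AAGGTCA and 4.03% for TGACGTCA. Of the 44 genes, 20 were at that level. CAAGGCCA was in 2 of these 20 and AAGGTCA in 1, CYP21A2. Whether any of these sequences goes with expression was not tested. These matches are letters in a window of 250 bases, not measured binding.

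Levels are given as RPKM, the reads of a gene scaled to its exon length in kilobases and to the library total in 1000000 reads. This puts genes of different length on a common scale. The exon length joins all annotated exons of a gene, so levels compared between genes also depend on the annotation. The WT libraries held 8549071, 8006873 and 8185527 counts, and 19769, 19656 and 19766 genes had a count in them. Values are means ± SD over the 3 WT libraries (n = 3), and ranks are among 19903 protein-coding genes. Of these, 423 had a mean of 100 RPKM or more, 3976 of 10 to under 100, 5952 of 1 to under 10, and 4842 were under 1 with at least 1 count. The remaining 4710 had no count in any WT library, which at 3 counts over the 24741471 pooled reads still allows the low upper limits given below with such genes. A level of 10 RPKM or more was thus reached by 22.1% of protein-coding genes and no count was found for 23.7%, and each list below is read against these shares.

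The WT libraries differed by transcript length, with replicates 2 and 3 on opposite sides of their mean. Among the 4399 genes at 10 RPKM or more, the slope of a library's log2 deviation from the 3-library mean on log2 exon length was 0.02 for replicate 1, -0.114 for replicate 2 and 0.094 for replicate 3. Deviations from a shared mean balance each other by construction, so the opposite signs do not show which library departs. In the shortest of 5 equal groups by exon length (median 1826.5 bases), 80.5% were highest in replicate 2. In the longest group (median 8402.5 bases), 62.3% were lowest in it. The ribosomal protein genes, which are short, took 5.56%, 6.73% and 5.12% of counts in replicates 1, 2 and 3. Leaving out replicate 2 changed the number of members at 10 RPKM or more by at most 2 in any of the 34 lists and left it as it was in 27 of them.

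**Figure D1:**
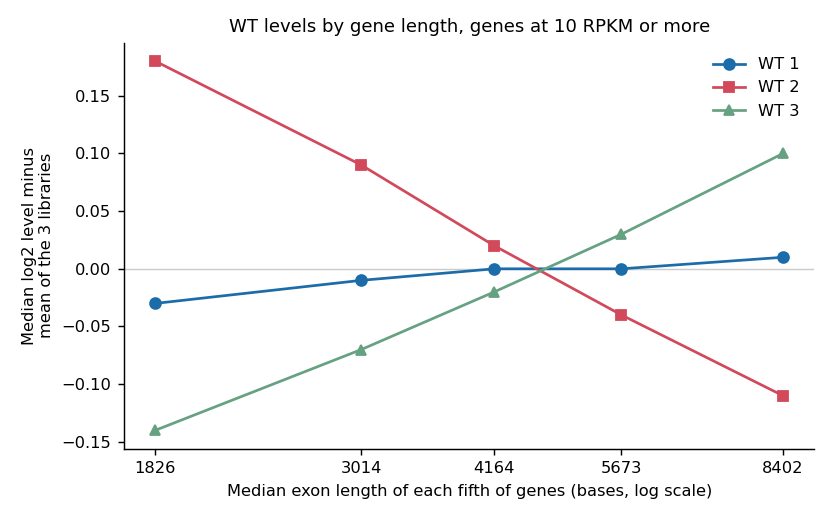
Median log2 level relative to the mean of the 3 WT libraries (y axis) for 5 groups of genes of rising exon length (x axis, bases, log scale), genes at 10 RPKM or more. Replicate 2 runs from 0.18 in the shortest group to -0.11 in the longest, replicate 3 from -0.14 to 0.1, and replicate 1 stays between -0.03 and 0.01.

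The highest transcripts were mostly those of general cell machinery. PPIA, a peptidyl-prolyl isomerase, ranked 1 at 1777.3 ± 285.9 RPKM (1644.9, 2105.4 and 1581.5 in replicates 1 to 3). The mitochondrially encoded MT-CO3, MT-CO2 and MT-CO1, subunits of cytochrome oxidase, ranked 2, 4 and 5, and the elongation factor EEF1A1 ranked 3 at 1645.0 ± 172.7 RPKM. The ribosomal protein genes RPS12, RPL41 and RPL7A took ranks 6 to 8. Outside the mitochondrial and ribosomal protein genes, the 20 highest included the ATP synthase gene ATP5F1B, the ferritin gene FTL, the lysosomal precursor PSAP, GAPDH, TPI1, the actin genes ACTG1 and ACTB, TMSB10, CD63, SPARC and the cell cycle gene CKS2. One of these 20 is on the list of adrenal zone and identity markers: PCP4, a calmodulin-binding protein found in aldosterone-producing cells, ranked 18 at 756.1 ± 71.9 RPKM (710.0, 839.0 and 719.4). PPIA, EEF1A1, FTL, GAPDH and ACTB have many pseudogene copies, so their levels are uncertain. The other genes named here, the mitochondrial and ribosomal protein genes included, were not checked for such copies. Replicate 2 gave the highest value for all of these 20 genes other than ACTG1, ACTB and TUBB4B, which were highest in replicate 1. Among long non-coding RNAs with a gene symbol, the highest were NORAD at 78.6 ± 7.44 RPKM and FGD5-AS1 at 65.2 ± 4.86 RPKM. SNHG6 at 30.4 RPKM and SNHG29 at 28.9 RPKM followed. Long non-coding RNA genes together took 0.882% to 0.911% of counts, and the mitochondrial genome took 0.79% to 0.867%.

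**Figure D2:**
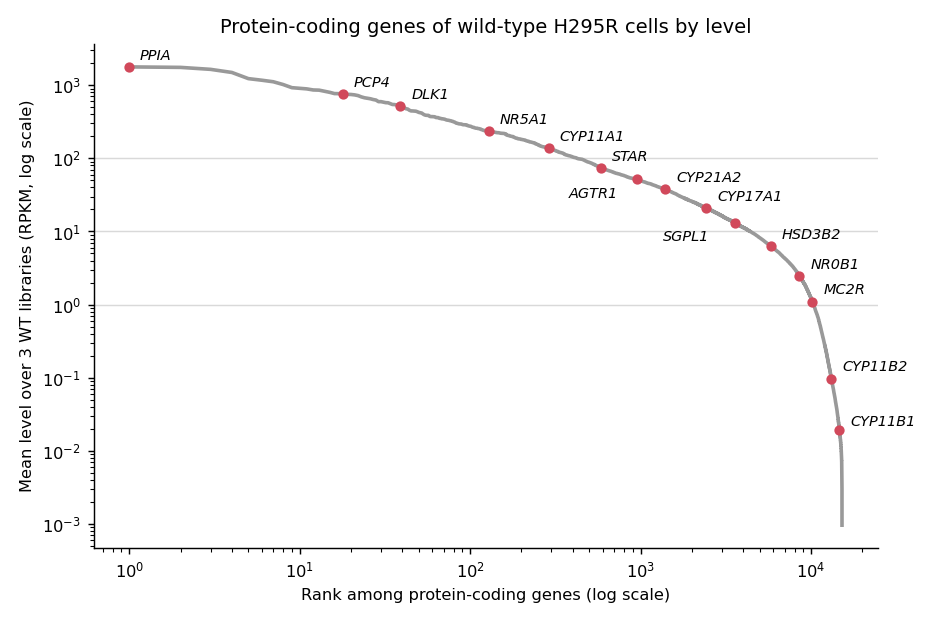
Mean level over the 3 WT libraries (y axis, RPKM, log scale) of each protein-coding gene with a count against its rank (x axis, log scale), with 15 named genes as points. DLK1 (514.0 RPKM) and PCP4 (756.1 RPKM) lie near the top, CYP17A1 (20.9 RPKM) and SGPL1 (13.1 RPKM) in the middle, and CYP11B2 (0.0974 RPKM) and CYP11B1 (0.0194 RPKM) near the lower end.

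All 5 genes taken to mark the adrenocortical identity of the cells were above 10 RPKM in each WT library. DLK1, an imprinted membrane protein of adrenal progenitors (ENSG00000185559, chromosome 14, 100725705 to 100738224, GRCh38), was at 556.7, 485.2 and 500.0 RPKM and ranked 39. NR5A1 (ENSG00000136931, chromosome 9, 124481236 to 124507420) was at 254.2, 218.5 and 229.1 RPKM and ranked 129. Both were highest in replicate 1 and lowest in replicate 2. CYP11A1 (ENSG00000140459, chromosome 15, 74337759 to 74367646) was at 140.5, 149.4 and 119.0 RPKM and ranked 289. STAR (ENSG00000147465) was at 73.2, 78.0 and 71.8 RPKM, ranked 588, and was highest in replicate 2 as CYP11A1 was. CYP17A1 (ENSG00000148795, chromosome 10, 102830531 to 102837472) was the lowest of the 5 at 21.4, 20 and 21.3 RPKM, rank 2424. Its exon length is 58.1% unshared with other genes' exons, where alone reads were counted, and over that part the level was 36.0 RPKM, as that of CYP11A1 was 186.7 RPKM over its unshared 73.0%. The ranges of the 5 genes did not overlap.

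Cholesterol import and transfer genes were mostly well expressed: 10 of 18 reached 10 RPKM (55.6%, against 22.1% of protein-coding genes) and 0 had no count. SCARB1, the receptor that takes cholesterol ester from high-density lipoprotein, was the highest at 162.5, 130.7 and 144.3 RPKM. SOAT1, which esterifies cholesterol for storage and is inhibited by mitotane, was at 50.2 ± 3.17 RPKM. Its ratio to STAR was 0.65, 0.632 and 0.748 in replicates 1 to 3. STARD4 and STARD3, other cholesterol carriers, were at 15.3 ± 0.907 and 11.7 ± 1.14 RPKM. The outer membrane channel VDAC1 was at 98.1 ± 2.91 RPKM, while TSPO, another outer membrane protein, had 32, 34 and 16 counts, or 2.33 ± 0.847 RPKM. APOE, a lipoprotein component abundant in normal adrenal cortex, had 8, 10 and 20 counts (0.716 ± 0.369 RPKM). PLIN2, which coats lipid droplets, had 14 counts in all.

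The steroid enzymes proper ranged from over 100 RPKM to no count. Of 26, 5 reached 10 RPKM (19.2%, near the 22.1% of protein-coding genes), 5 lay between 1 and 10, 8 were under 1 with counts, and 8 had no count (30.8%, against 23.7% of protein-coding genes). CYP11A1 led, as given above, followed by SULT2A1 at 87.7, 100.6 and 104.7 RPKM (97.6 ± 8.83). CYP21A2, the hydroxylase that defects in congenital adrenal hyperplasia most often affect, was at 38.8, 33.5 and 40.6 RPKM, and its pseudogene copy makes the level uncertain. CYP17A1 followed, and its range overlapped that of AKR1C3, which reduces androstenedione to testosterone (17.4, 21.5 and 15.2 RPKM). HSD3B2, needed for both cortisol and aldosterone, was at 5.96, 6.58 and 6.33 RPKM, from 116, 120 and 118 counts. HSD3B2 and AKR1C3 each have close relatives that can share reads, which makes their levels uncertain. CYP21A2 was 6.0 ± 0.792 times and CYP17A1 3.33 ± 0.283 times the level of HSD3B2, with ratios taken within each library. Over unshared exon length, where alone reads were counted, CYP17A1 was at 36.9, 34.4 and 36.6 RPKM, which is 5.73 ± 0.487 times HSD3B2, above AKR1C3 and just below CYP21A2 (43.4, 37.5 and 45.4 RPKM). The reductase SRD5A1 was at 4.53 ± 0.848 RPKM and the aromatase CYP19A1 at 2.61 ± 0.291 RPKM, and their ranges did not overlap.

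The last enzymes of the cortisol and aldosterone branches were close to undetected. CYP11B2, aldosterone synthase, had 0, 1 and 6 counts in replicates 1 to 3, and CYP11B1, which makes cortisol, had 0, 0 and 2. The 2 genes are close copies, and reads that fit both were not counted, so these counts may fall short of the transcripts present. HSD3B1, HSD17B2, HSD17B3, SRD5A2, SULT1E1, UGT2B7, UGT2B15 and UGT2B17 had no count, which allows levels up to 0.0127 to 0.0584 RPKM depending on gene length. For HSD17B3, 22.4% of the exon length is unshared with other genes, so its zero covers only that part. HSD17B1 had 17 counts with 23.9% of its exon length unshared.

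Electron donors and cofactors of the steroid enzymes had a list median of 15.9 RPKM, against 0.435 RPKM for the enzymes and 1.26 RPKM for protein-coding genes, with 9 of 13 at 10 RPKM or more (69.2%). The mitochondrial donors FDXR and FDX1 were at 100.8 ± 14.0 and 53.9 ± 7.58 RPKM, a ratio of 1.88 ± 0.198. POR, which gives electrons to CYP17A1 and CYP21A2, was at 100.6, 97.7 and 84.4 RPKM, and the haem-binding partner PGRMC1 at 145.0 ± 14.1 RPKM. CYB5A, which favours the lyase step of CYP17A1, was at 4.43 ± 0.493 RPKM, and POR was 21.3 ± 1.18 times its level. CYB5B of the outer mitochondrial membrane was at 75.8 ± 4.43 RPKM. Of the enzymes that make the sulfate donor for SULT2A1, PAPSS1 was at 15.2 ± 1.25 RPKM and PAPSS2 at 4.36 ± 0.974 RPKM. FDX2 had 1 count, and 29.1% of its exon length is unshared with other genes.

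**Figure D3:**
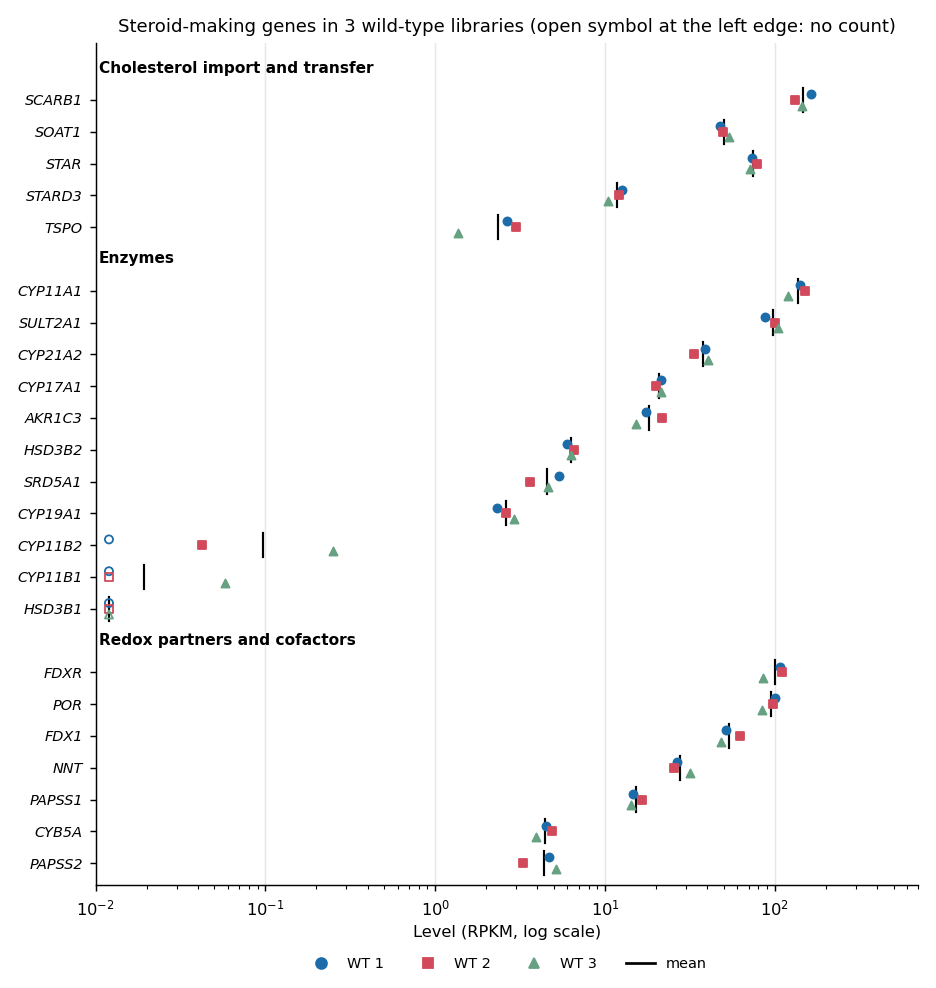
Level in each of the 3 WT libraries (x axis, RPKM, log scale) of genes for cholesterol import, steroid enzymes and their redox partners, with the mean as a line and open symbols at the left edge for no count. The import genes and redox partners lie mostly above 10 RPKM, while the enzymes run from CYP11A1 at 136.3 RPKM down to CYP11B1 at 0.0194 RPKM and HSD3B1 with no count.

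Markers of adrenal zones did not point to a single zone: 16 of 39 reached 10 RPKM (41.0%) and 3 had no count (RSPO3, CYP4B1 and AS3MT, the last with 5.1% of its exon length unshared). A further 9 lay between 1 and 10 RPKM and 11 were under 1 with counts, so the genes named next are mostly the higher members. Besides PCP4 and DLK1, GSTA1, a glutathione transferase of steroid-making cells, was at 282.3, 334.3 and 252.9 RPKM and CCN3, a matrix protein of the fetal and adult cortex, at 163.3, 163.0 and 173.4 RPKM. The outer-zone genes WNT4, DAB2 and VSNL1 were at 56.7 ± 1.49, 52.3 ± 9.85 and 37.9 ± 2.65 RPKM. The aldosterone enzyme CYP11B2 and the cortisol enzyme CYP11B1 were close to undetected, as given above. The zona reticularis gene SULT2A1 was high while CYB5A, a gene of the same zone, was under 10 RPKM. MGARP, a mitochondrial protein of steroidogenic cells, was at 25.7 ± 3.84 RPKM, and FATE1 at 14.5 ± 2.02 RPKM. SHH, made by cells under the capsule, was at 1.18 ± 0.111 RPKM.

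Of 30 transcription factors of the adrenal cortex, 10 reached 10 RPKM (33.3%) and 4 had no count. NR5A1 stood far above the next factor, CREM, a cyclic AMP response factor at 30.8, 32.7 and 30 RPKM. ATF1, of the same family, was at 25.1, 25.1 and 25 RPKM, whereas CREB1 had 16, 7 and 19 counts and 0.139 ± 0.061 RPKM. HOXA5, NR2F2 and SP1 were at 19.6 ± 0.792, 18.3 ± 2.24 and 17.1 ± 2.44 RPKM. The range of NR2F2 overlapped those of both others, and HOXA5 lay above SP1 in every library. NR0B1 (DAX-1), a repressor of NR5A1, was at 1.7, 2.5 and 3.25 RPKM, lowest in replicate 1, so the ratio of NR5A1 to it ran from 70.6 to 149.5 over the libraries. GATA6 was at 5.13 ± 0.787 RPKM and GATA4 at 2.4 ± 0.576 RPKM, and their ratio was 2.19, 2.45 and 1.89. The immediate early factors NR4A1 and NR4A3, which angiotensin II is known to induce, were at 9.77 ± 1.91 and 10.3 ± 2.79 RPKM. NR5A2, the closest relative of NR5A1, had no count (up to 0.0161 RPKM allowed), nor had NR0B2, the Wilms tumour gene WT1 or TCF21, a factor of capsular cells.

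Among nuclear hormone receptors, 9 of 37 were at 10 RPKM or more (24.3%, near the 22.1% of protein-coding genes), the list median was 2.87 RPKM against 1.26 RPKM, and 5 had no count, among them RXRG, PPARG, NR1I2 and HNF4A. The clock repressor NR1D2 was the highest at 57.4 ± 6.73 RPKM, followed by the oxysterol receptor NR1H2 at 34.0, 34.1 and 28.2 RPKM. NR1H2 was 32.7 ± 4.27 times its relative NR1H3. RORB, an orphan receptor better known from retina and brain, was at 27.0, 21.8 and 39.7 RPKM, the widest spread of the highest 3. The glucocorticoid receptor NR3C1 was at 3.64 ± 0.484 RPKM and the mineralocorticoid receptor NR3C2 at 2.11 ± 0.519 RPKM. The oestrogen receptor ESR1 had 141 counts over the 3 libraries and ESR2 was at 1.01 ± 0.31 RPKM.

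Few receptors for peptide and amine hormones reached 10 RPKM: 4 of 65 (6.15%), with 22 at no count (33.8%). AGTR1, the angiotensin II receptor that drives aldosterone output, was at 49.4, 51.7 and 53.0 RPKM. Its range overlapped that of the adiponectin receptor ADIPOR1 (50.1, 53.3 and 53.1 RPKM) and lay above that of ADIPOR2 (35.0 ± 0.705 RPKM). ADRA2A, an adrenergic receptor, was the last of these, at 11.8, 8.02 and 10.5 RPKM, and was below 10 in replicate 2. MC2R, the ACTH receptor, was far lower, at 0.909, 1.31 and 1.08 RPKM from 29, 39 and 33 counts, and AGTR1 was 47.7 ± 7.46 times its level. In bulk RNA, a gene expressed in few cells and a gene expressed weakly in all cells cannot be told apart. MRAP, which carries MC2R to the surface, had 3, 0 and 5 counts, with 30.1% of its exon length unshared and 0.792 RPKM over that part, while MRAP2 had no count. EDNRB, an endothelin receptor, was at 5.51 ± 0.364 RPKM, PTH2R at 3.78 ± 0.585 RPKM and GNRHR, the gonadotropin-releasing hormone receptor, at 3.16 ± 0.46 RPKM. LHCGR, FSHR, GLP1R, AGTR2 and ADRB1, some of which turn up in cortisol- or aldosterone-producing tumours, had no count, and the limits for the 22 ran from 0.011 to 0.112 RPKM. CRHR1, also without counts, has 30.3% of its exon length unshared.

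**Figure D4:**
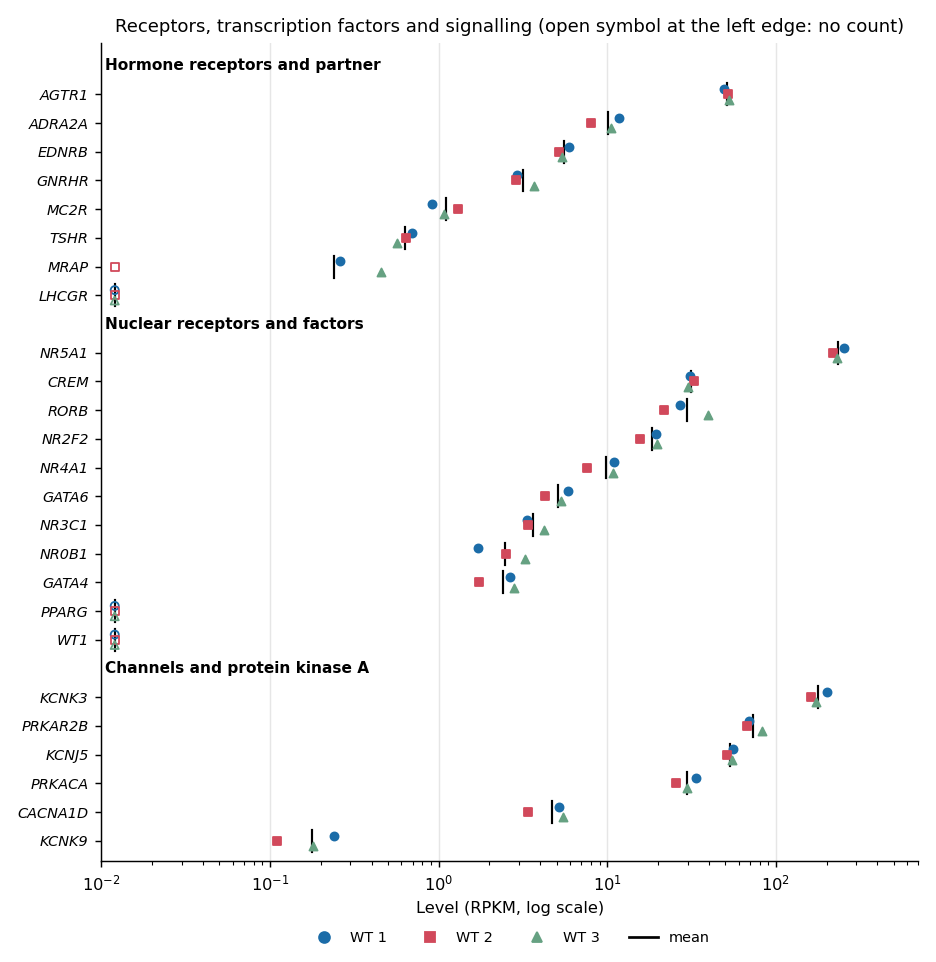
Level in each WT library (x axis, RPKM, log scale) of hormone receptors, nuclear receptors and other factors, and channels and protein kinase A genes, with the mean as a line and open symbols at the left edge for no count. AGTR1 lies near 51.4 RPKM and MC2R near 1.1 RPKM, and NR5A1 (233.9 RPKM) and KCNK3 (178.1 RPKM) lie furthest to the right.

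Of the growth factor receptors, 10 of 48 were at 10 RPKM or more (20.8%, near the background) and 3 had no count (ERBB4, FLT1 and BMPR1B). FZD7, a Wnt receptor, was the highest at 54.5, 46.6 and 54.8 RPKM. The TGF-beta receptor TGFBR1 was at 31.4 ± 2.64 RPKM, EPHB4 at 30.8 ± 4.64 RPKM and IGF2R, which clears IGF2, at 20.1 ± 4.18 RPKM. FGFR4, described in adrenocortical tumours, was at 15.2, 15.0 and 13.2 RPKM and FGFR1 at 14.9, 9.89 and 13.7 RPKM. IGF1R, which signals for IGF2, was at 9.37, 5.98 and 10.3 RPKM and the insulin receptor INSR at 6.95 ± 1.17 RPKM, both lowest in replicate 2.

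In the cyclic AMP pathway, 11 of 30 genes reached 10 RPKM (36.7%). The stimulatory G protein gene GNAS was at 96.4 ± 10.8 RPKM, the inhibitory GNAI2 at 86.1 ± 5.76 RPKM, and the catalytic subunit PRKACA at 29.6 ± 3.87 RPKM. Among the regulatory subunits, PRKAR2B (72.9 ± 8.14 RPKM) and PRKAR1A (59.8 ± 1.21 RPKM), the gene mutated in Carney complex, stood above PRKAR1B (17.2 ± 2.52 RPKM) and PRKAR2A (14.0 ± 1.46 RPKM). PDE2A, a phosphodiesterase of the outer cortex, was at 68.9, 58.1 and 62.7 RPKM. ADCY2 and PRKACG had no count.

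Of the genes of aldosterone control by potassium and calcium, 13 of 33 were at 10 RPKM or more (39.4%). The potassium leak channel KCNK3 was at 201.1, 161.1 and 172.1 RPKM, highest in replicate 1, while its relative KCNK9 had 30 counts in all. KCNJ5, the potassium channel mutated in many aldosterone-producing adenomas, was at 55.5, 51.0 and 54.8 RPKM. The calmodulin genes CALM3 and CALM2 were at 247.2 ± 8.02 and 107.0 ± 15.2 RPKM. The sodium pump subunit ATP1B3 was at 73.6 ± 4.92 RPKM. The calcium channel genes CACNA1D and CACNA1H, both mutated in familial aldosteronism, were lower, at 4.68 ± 1.11 and 1.62 ± 0.634 RPKM. KCNJ3 had no count.

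Several metabolic lists had a large share of members above 10 RPKM. For cholesterol synthesis the share was 21 of 28 (75%). DHCR7, which catalyses a late step, was at 81.3, 74.2 and 80.5 RPKM, and the regulator INSIG1 at 59.7 ± 1.05 RPKM. CYP51A1 appeared low at 2.76 ± 0.693 RPKM, but only 15.5% of its exon length is unshared. Of the citric acid cycle genes, 21 of 28 (75%) reached 10 RPKM, with FH at 128.1 ± 3.44, MDH2 at 116.6 ± 11.8 and OGDH at 112.6 ± 13.1 RPKM. The gluconeogenic PCK1 had no count and its mitochondrial relative PCK2 was at 8.2 ± 0.474 RPKM. For the pentose phosphate and NADPH genes, which supply reducing power for steroid hydroxylation, the share was 14 of 19 (73.7%). TKT was at 87.5 ± 3.43 RPKM and NNT, the mitochondrial transhydrogenase mutated in familial glucocorticoid deficiency, at 26.4, 25.3 and 31.5 RPKM.

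Glycolysis had a wide range, with 15 of 35 genes at 10 RPKM or more (42.9%) and 5 without a count. GAPDH was at 820.7, 823.1 and 750.9 RPKM, TPI1 at 743.6, 833.3 and 632.5 RPKM, and PKM at 552.7, 606.1 and 473.8 RPKM, each lowest in replicate 3. LDHA was at 65.6 ± 7.5 RPKM and 2.54 ± 0.246 times LDHB. The glucose carrier SLC2A1 was at 33.2 ± 2.41 RPKM, HK1 at 20.8 ± 1.92 RPKM and HK2 at 1.52 ± 0.16 RPKM. ALDOA, at 1.63 ± 0.118 RPKM, has 45.3% of its exon length unshared, and ALDOC was at 34.8 ± 3.02 RPKM. SLC2A2, HK3, GAPDHS, PGAM2 and LDHC had no count, and no part of the PGAM2 exons is free of other genes.

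Fatty acid synthesis was led by the desaturase SCD at 135.8, 108.7 and 155.0 RPKM, the elongase ELOVL5 at 70.6 ± 2.04 RPKM and the desaturase FADS2 at 45.1 ± 3.64 RPKM, with 11 of 28 genes at 10 RPKM or more (39.3%). FASN itself was at 31.3, 15.3 and 28.8 RPKM, and replicate 2 held the low value. For fatty acid oxidation 15 of 30 reached 10 RPKM (50%), with ECHS1 at 298.2 ± 39.2 RPKM, ACADVL at 66.7 ± 1.67 RPKM and the entry enzyme CPT1A at 4.49 ± 0.371 RPKM. Of 53 nuclear genes of the respiratory chain and ATP synthase, 42 reached 10 RPKM (79.2%), with ATP5F1B at 859.9 ± 81.0 and NDUFA8 at 206.2 ± 21.0 RPKM. All 13 mitochondrially encoded mRNAs had means above 10 RPKM, from MT-ATP8 at 59.8 to MT-CO3 at 1750.5 ± 120.3 RPKM. The muscle forms COX7A1 and COX6A2 had 0 and 2 counts in all.

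Antioxidant and iron genes were high, as 26 of 38 reached 10 RPKM (68.4%) and 13 of those reached 100. FTL was at 854.7 ± 129.1, PRDX5 at 523.0 ± 95.9, MT2A at 419.4 ± 32.7, TXN at 387.8 ± 49.8 and PRDX2 at 359.8 ± 57.6 RPKM, each highest in replicate 2. The phospholipid peroxidase GPX4, which guards against ferroptosis, was at 174.2, 197.2 and 152.6 RPKM and the transferrin receptor TFRC at 154.7, 156.0 and 175.9 RPKM. SLC7A11, the cystine carrier, was at 3.09 ± 0.696 RPKM. GSTP1, a glutathione transferase abundant in many tumour lines, had no count in any WT library (up to 0.0687 RPKM allowed, with 100% of its exon length unshared), nor had GSTM1, HAMP or MT1G. Genes of protein folding in the endoplasmic reticulum and of the amino acid response reached 10 RPKM in 21 of 30 cases (70.0%), led by HSPA5 at 325.6, 324.9 and 313.5 RPKM and CALR at 320.5 ± 23.1 RPKM. Stress-induced members of that list varied between libraries. CHAC1 was at 1.03, 11.1 and 13.4 RPKM and ATF4, the factor above it, at 43.3, 69.7 and 67.0 RPKM. Both were lowest in replicate 1.

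Among adrenocortical carcinoma driver and checkpoint genes, 21 of 47 reached 10 RPKM (44.7%) and 3 had no count. FSCN1, an actin-bundling protein linked to invasion, was at 498.4, 415.3 and 408.2 RPKM. CTNNB1, the gene of beta-catenin, was at 174.7, 179.4 and 178.0 RPKM, a CV of 1.36%. CDK4 was at 87.5, 96.4 and 81.9 RPKM and its inhibitor CDKN2A at 47.3, 54.0 and 39.8 RPKM. RB1, the retinoblastoma gene, was at 5.2, 4.74 and 5.28 RPKM. Counts cover whole genes and say nothing of mutations or deleted exons in these genes. CCNE1 (27.7 ± 0.33 RPKM) and CCND3 (23.1 ± 2.26 RPKM) were the cyclins of the list above 10 RPKM, while CCND1 had 13, 0 and 4 counts. The Wnt brake ZNRF3 was at 12.7, 8.65 and 13.8 RPKM, MEN1 at 18.0 ± 1.85 RPKM and MYC at 13.0 ± 2.13 RPKM. MYCN, TERT and the telomerase RNA TERC had no count, and of the TERC length 19% is unshared.

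Wnt targets and inhibitors reached 10 RPKM in 10 of 37 cases (27.0%). APCDD1, a target that inhibits the pathway, was at 106.8, 96.3 and 102.7 RPKM, TBX3 at 83.0 ± 12.9, TNFRSF19 at 61.9 ± 4.44 and BMP4 at 58.4 ± 1.72 RPKM. AXIN2 and LEF1, often used as readouts of beta-catenin, were at 13.2 ± 0.959 and 13.3 ± 2.25 RPKM, with overlapping ranges. NKD2, DKK4, SFRP2, LGR6, RSPO1 and RSPO3 had no count.

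In the IGF axis and among imprinted genes, 10 of 39 reached 10 RPKM (25.6%). After DLK1, PEG10 was at 170.7, 120.9 and 209.1 RPKM, NDN at 109.9 ± 10.3 RPKM and IGFBP2 at 73.6, 75.3 and 62.1 RPKM. DLK1 was 110.9 ± 12.1 times the level of MEG3, the non-coding gene of the same imprinted cluster. IGF2, a growth factor raised in most adrenocortical carcinomas, had 553, 161 and 726 counts, or 10.3, 3.21 and 14.2 RPKM. Replicate 2 was the low library, and since 27.9% of the IGF2 exon length is unshared, its level over that part was 33.2 RPKM. H19, its neighbour on chromosome 11, was at 0.75 ± 0.165 RPKM. INS and IGFBP1 had no count.

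Proliferation genes formed the list with the next highest share after the mitochondrial mRNAs, 33 of 36 at 10 RPKM or more (91.7%). PCNA was at 239.1, 312.6 and 244.1 RPKM, CCNB1 at 220.0 ± 24.1, UBE2C at 144.5 ± 10.5 and TOP2A, the target of etoposide and doxorubicin, at 134.5 ± 15.8 RPKM. PRC1 had 30 counts, over the 38.1% of its exon length that is unshared. Of genes tied to mitotane and chemotherapy, 12 of 28 reached 10 RPKM (42.9%), with TUBB at 536.4 ± 27.0 RPKM and the drug pump ABCB1 at 80.8, 74.3 and 92.9 RPKM. CYP3A4, CYP2B6, ABCC2, ABCG2, PDCD1LG2 and FOLH1 had no count, and CYP2W1, a cytochrome P450 of adrenocortical tumours, had 24 counts in all.

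Of the sphingosine-1-phosphate genes, 7 of 24 were at 10 RPKM or more (29.2%). SGPL1 (ENSG00000166224) was at 14.0, 11.3 and 13.9 RPKM. SGPP1, the phosphatase that competes for the same lipid, was at 24.6 ± 2.46 RPKM and 1.92 ± 0.426 times SGPL1. Of the kinases that make the lipid, SPHK2 was at 7.96 ± 1.48 RPKM and SPHK1 had 14, 4 and 7 counts. S1PR3 was the highest receptor at 30.1, 25.2 and 34.2 RPKM, and 17.9 ± 7.79 times S1PR1. S1PR4 had no count, and neither had SPNS1, of which 37.3% of the exon length is unshared.

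Antigen presentation genes reached 10 RPKM in 11 of 27 cases (40.7%). B2M was at 218.1, 269.2 and 224.7 RPKM and HLA-B and HLA-C at 53.2 ± 6.5 and 48.3 ± 7.8 RPKM. CD74, HLA-DRB1 and HLA-DQA1 of the class II pathway had no count, and the class II regulator CIITA had 27 in all. Of the matrix and adhesion genes 18 of 42 reached 10 RPKM (42.9%). CD63 and SPARC led at 672.4 ± 117.6 and 661.3 ± 46.1 RPKM, TIMP3 was at 218.7 ± 27.1 RPKM and the intermediate filament gene VIM at 153.7 ± 7.13 RPKM. The adhesion gene CDH2 was at 16.6 ± 1.94 RPKM, while CDH1 had 6, 2 and 4 counts. CLDN1 was at 143.4 ± 8.18 RPKM and CLDN3 had no count.

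Markers of other cell types were at or near 0 for most lists. Of 14 leukocyte markers 9 had no count, PTPRC among them, and their summed level was 3.52 to 4.93 RPKM per library. Of 12 endothelial markers 6 had no count, PECAM1, CDH5, VWF, TEK, TIE1 and ERG, and the sum of 23.7 to 32.0 RPKM came almost wholly from EGFL7. Fibroblast markers summed to 9.27 to 11 RPKM, with LUM and POSTN at no count. Epithelial markers summed to 10.6 to 12.5 RPKM, almost all EPCAM, with KRT5, KRT14, KRT20 and GRHL2 at no count. Hepatocyte and kidney markers summed to 3.99 to 5.53 RPKM. Of 34 chromaffin and neural markers, 10 had no count (29.4%), among them the chromaffin enzymes TH, DBH, PNMT and DDC and the factor PHOX2A. A level of 10 RPKM was reached by 3 (8.82%): NEFL (25.4 ± 2.56 RPKM), NCAM1 (16.7 ± 3.75 RPKM) and SYP (12.2 ± 1.16 RPKM). A further 9 lay between 1 and 10 RPKM, CHGB (7.94 RPKM), NEFM (6.24 RPKM) and NEFH (5.73 RPKM) among them, and 12 were under 1 with counts. SYP and NCAM1 are also known from adrenocortical tumours.

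**Figure D5:**
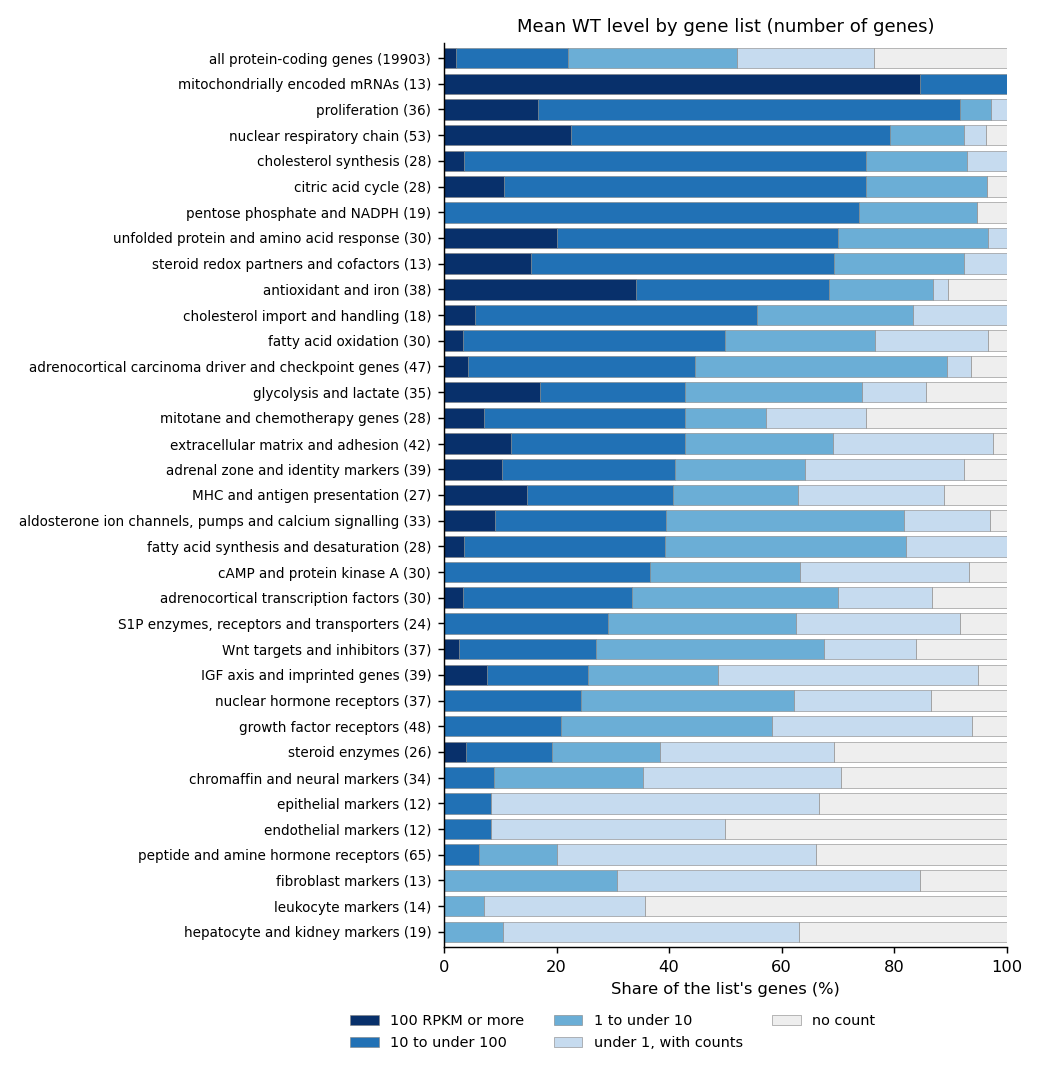
Share of each list's genes (x axis, percent; number of genes in brackets) in 5 classes of mean WT level, with all protein-coding genes as the top bar and the lists ordered by the share at 10 RPKM or more. The mitochondrially encoded mRNAs (100%) and proliferation genes (91.7%) are at the top, and hormone receptors (6.15%) and markers of other cell types at the foot.

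The spread between the WT libraries exceeded counting error. Over the 4399 genes at 10 RPKM or more, the median CV was 10.2% (5th to 95th percentile 2.63% to 22.8%), against 3.38% from counting alone. It was 6.21% without replicate 2, 8.34% without replicate 3 and 11% without replicate 1. A CV under 10% was found for 2151 genes (48.9%) and one over 30% for 63. ATF1, MT-CO2 and CTNNB1 were among the steady genes. Among these 4399 genes, the 10 most variable were AGRP, MKI67, SMN1, PEG3, DDIT3, CENPF, FAT1, PRRC2B, SRRM2 and WNK1. MKI67, the proliferation antigen, was at 18.8, 7.52 and 25 RPKM, and CENPF, of the kinetochore, at 17.0, 8.58 and 25 RPKM. PEG3, FAT1, PRRC2B, SRRM2 and WNK1 had the same order, lowest in replicate 2 and highest in replicate 3, and these 7 have exon lengths from 9769 to 17280 bases. The part of the length pattern in their spread was not tested. SMN1, the survival motor neuron gene, had 635, 270 and 269 counts, and its near-identical copy SMN2 makes its level uncertain. DDIT3, a stress factor downstream of ATF4, was at 6.18, 18.8 and 17.8 RPKM, low in replicate 1 as CHAC1 was. AGRP was at 9.16, 16.1 and 4.91 RPKM from at most 64 counts.

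The WT levels were then set beside the KO libraries and those labelled OE, which share the WT libraries as their reference. In WT, SGPL1 was at the 14.0, 11.3 and 13.9 RPKM given above, in KO at 6.29, 5.86 and 7.16 RPKM, and in the libraries labelled OE at 12.9, 9.76 and 13.2 RPKM. It fell in KO by 0.97 on the log2 scale (SE 0.14, edgeR quasi-likelihood adjusted p = 0.000105), while the difference for OE was -0.01 ± 0.14 (adjusted p = 0.966). The labels do not say which construct was used or whether its reads would be counted under the gene, so the counts neither show nor deny overexpression. By edgeR 18.8% of the 14150 genes tested differed between KO and WT (9.16% higher and 9.6% lower in KO), and 20.7% between OE and WT (9.65% higher and 11% lower). Of the 20 highest genes named by rank above, 2 were higher and 4 lower in KO, while OE had 10 higher and 2 lower. For the 4399 genes at 10 RPKM or more in WT, log2 RPKM was also taken relative to the mean of the group means, apart from the edgeR fit. Its slope on log2 exon length was 0.058, -0.076 and 0.131 in WT and 0.073 to 0.197 in KO. In the libraries labelled OE it was -0.297 to -0.103, so shorter genes stood higher in them. The part of this in the OE differences was not tested. The OE count of 2924 genes was 1381 without WT replicate 1, 1244 without WT replicate 3 and 1849 without OE replicate 2, and the KO count of 2655 was 1764 without KO replicate 2.

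Of the 5 identity markers, NR5A1 and CYP17A1 passed the test in neither comparison. NR5A1 differed by 0.24 ± 0.11 in KO (edgeR adjusted p = 0.16) and -0.04 ± 0.11 in OE (adjusted p = 0.847), and CYP17A1 by -0.21 ± 0.13 and -0.19 ± 0.13 (adjusted p = 0.285 and 0.298). CYP11A1 rose in OE by 0.39 ± 0.13 (edgeR adjusted p = 0.0435), a call lost without WT replicate 1, without WT replicate 3 or without OE replicate 2 (adjusted p = 0.101, 0.201 and 0.147), or with those groups alone (0.0766), and as low as 0.00797 elsewhere. STAR rose in KO to 135.8, 121.3 and 110.2 RPKM (0.77 ± 0.11, edgeR adjusted p = 8e-05) and DLK1 to 1202.3, 1177.8 and 938.9 RPKM (1.16 ± 0.11, adjusted p = 1.78e-06), with no overlap with WT. PCP4 was at 534.0, 487.1 and 535.2 RPKM in KO and 1168.6, 1472.4 and 1325.1 RPKM in the libraries labelled OE, so the WT libraries lay between the other groups with no overlap. It fell by 0.49 on the log2 scale in KO (edgeR adjusted p = 0.00981, and 0.0643 without KO replicate 2, the highest of its alternatives, which began at 0.000592) and rose by 0.93 ± 0.12 in OE (adjusted p = 0.000243).

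The order of some steroid enzymes differed from WT. HSD3B2, below CYP17A1 in every WT library, was at 45.9, 38 and 45.8 RPKM in the libraries labelled OE, above CYP17A1 (17.2, 14.7 and 18.6 RPKM, or 29.6, 25.4 and 31.9 RPKM over unshared exon length) in each. The rise of HSD3B2 there was 2.9 ± 0.15 on the log2 scale (edgeR adjusted p = 9.02e-09) and that of CYP21A2 1.66 ± 0.13 (adjusted p = 2.06e-06). CYP19A1, at 2.61 RPKM in WT, was at 29.5, 28.4 and 34.0 RPKM in KO, a rise of 3.6 ± 0.14 (edgeR adjusted p = 8.65e-11). CYP17A1 was at 19, 16.6 and 16.7 RPKM in KO, below CYP19A1, but at 32.6, 28.6 and 28.7 RPKM over unshared exon length, where their ranges overlapped. SULT2A1 was at 187.3, 182.7 and 197.0 RPKM in KO, beside CYP11A1 at 156.7, 143.7 and 131.6 RPKM. Over unshared exon length CYP11A1 was at 214.7, 196.9 and 180.2 RPKM there, where its range overlapped that of SULT2A1. Their order in KO was thus resolved over the full exon length only.

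Among hormone receptors, 21 of 65 had enough counts to be tested, of which 6 were higher and 3 lower in KO, and 3 higher and 5 lower in OE. Of all genes tested, 9.16% were higher and 9.6% lower in KO, and 9.65% and 11% in OE. AGTR1 was at 40.2, 42.0 and 41.5 RPKM in KO (log2 difference -0.26 ± 0.12, edgeR adjusted p = 0.137) and at 71.4, 52.4 and 74.7 RPKM in the libraries labelled OE (0.48 ± 0.12, adjusted p = 0.00954). The latter call was lost without WT replicate 1 (adjusted p = 0.052) and without OE replicate 3 (0.0521), and ranged down to 0.00109 elsewhere. EDNRB rose in KO to 21.0, 24.8 and 29.3 RPKM (2.24 ± 0.16, edgeR adjusted p = 8.85e-08) and GNRHR to 13.0, 12.9 and 16.6 RPKM (2.22 ± 0.19, adjusted p = 4.41e-07). In KO both thus passed 10 RPKM, which neither reached in WT. GSTA1 fell in the libraries labelled OE to 119.9, 147.0 and 103.3 RPKM, by 1.11 on the log2 scale (SE 0.15, edgeR adjusted p = 0.000256).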

How the data were processed

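RNA was measured in 9 H295R libraries, of which the 3 labelled WT are described. The deposited files hold whole-number counts of reads for each gene, and the gene's length. Per the file headers, featureCounts 1.5.2 made them on Ensembl release 101 (GRCh38) with default options, which ignore strand and drop both multi-mapping reads and reads in exons of several genes. Close copies, shared exons and antisense genes are thus undercounted, and the unshared exon percent was computed from the files' exon coordinates. The submitters' processing notes list, with no order, HISAT2 1.03, featureCounts 0.1.0 (another version than the headers give), FastQC, Subread and DESeq2.

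RPKM was computed from the counts, the library totals (8006873 to 8549071 in WT) and the deposited length. Of 60671 genes, 42256 (69.6%) had a symbol and 58453 (96.3%) a biotype, the latter from GENCODE release 29. Upper limits for genes without counts are 3 counts over the 3 WT libraries and cover counting error only. No pair of WT libraries agreed within sampling noise (chi-square per degree of freedom 5.51 to 8.35), so none was merged as a library deposited again; this does not show separate cultures. KO and OE were compared with WT by the quasi-likelihood test of edgeR 4.0.16 in R 4.3.3 on all 9 libraries (TMM, filterByExpr with a minimum count of 10, Benjamini-Hochberg adjusted p under 0.05, also tested on simulated data). The simulated data gave every gene the same spread and no length trend, so that test does not cover these features of the data. Log2 differences are given ± SE. Alternatives include DESeq2 1.42.0.

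The members and the 34 gene lists (985 of 987 genes found) were chosen with earlier results of these data known. Named were the 5 markers, SGPL1, the 20 highest genes, 3 mitochondrial and 3 ribosomal ones, the 10 most variable and the 5 highest long non-coding RNAs with a symbol. Per list the rule adds up to 8 of the highest members and those without counts, with any member for steroid enzymes, transcription factors and drivers. Some genes that this rule names are not reported here. Any other gene named was chosen after its values were seen.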

Additional observations from a re-analysis of the deposited data

How the results depend on the processing

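The count of genes at 10 or more was 4399 in RPKM and 8424 in TPM (transcripts scaled to a fixed library sum), which by construction multiplies all genes of a library alike and left the same 100 genes at the top. In RPKM it ran from 4359 to 4449 when a WT replicate was left out, and was 4612 over unshared exon length, an alternative chosen after seeing the data. Without length scaling, 59 of the 100 highest genes were shared. The median CV of 10.2% was 11.8% in TPM, 10.5% with TMM-scaled totals, 12.6% over genes at 1 RPKM or more, and 6.21%, 8.34% and 11% without WT replicates 2, 3 and 1. The means of the 663 genes followed moved by less than 1 SD when any replicate was left out, which with 3 libraries holds by construction, and 116 moved by more over unshared length.

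Leaving out a replicate gave 1764 to 2419 genes called in KO (2655 in the full data; lowest without KO replicate 2) and 1244 to 3673 in OE (2924). In OE it was 1381, 1244 and 1849 without WT replicate 1, WT replicate 3 or OE replicate 2. With the replicate block the counts were 3235 for KO and 3757 for OE. Correlations of same-numbered deviations were 0.06, -0.03 and 0.17 for WT with KO and 0.01, 0.25 and 0.14 for WT with OE. Those of unlike numbers ran from -0.19 to 0.12 for KO and from -0.28 to 0.21 for OE. Not every library correlated best with its own number, and these values do not settle whether the numbers pair the libraries. DESeq2 called 2702 and 3065. STAR in OE (0.28) passed the test under DESeq2, with the block and without WT replicate 2, and CD63 in KO without the filter, with the block and with only the 2 groups compared. Differences near 0 changed sign, none of them past the test: SGPL1 in OE was 0.01 without the filter and -0.08 to 0.09 with a replicate left out, and NR5A1 in OE ran from -0.12 to 0.03, EDNRB in OE from -0.18 to 0.05 and GSTA1 in KO from -0.04 to 0.19. The cause was not tested. Depth limits the genes with few counts, CYP11B1, CYP11B2 and MC2R among them.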

Other observations

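Some subunits of complexes were far below their partners in the WT libraries, values that belong to no comparison above. The succinate dehydrogenase gene SDHA was at 1.47, 1.38 and 1.18 RPKM while SDHB, SDHC and SDHD were at 41.4 ± 7.08, 57.6 ± 3.81 and 35.9 ± 3.15 RPKM. In complex I, NDUFV2 had 1 count in all and NDUFA9 was at 1.16 ± 0.2 RPKM beside NDUFV1 at 45.5 ± 4.98 RPKM. SDHA and NDUFV2 are known to have pseudogene copies elsewhere in the genome, and the files count no read that maps to several places. The share of their reads lost in this way was not tested. ASNS, the asparagine synthetase gene, had 8, 6 and 8 counts with 50.7% of its exon length unshared, beside PSAT1 and PHGDH, of the same amino acid response, at 77.0 ± 10.9 and 38.1 ± 2.41 RPKM.

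Shared exons were more frequent among genes without counts than among highly expressed ones. Of all 19903 protein-coding genes, 1155 (5.8%) had under 50% of their exon length unshared. The share was 6.11% of the 4842 genes under 1 RPKM with counts, and 0.709% (3 genes) of the 423 at 100 RPKM or more. Of the 4710 without a WT count it was 739 (15.7%), and 287 of these had none unshared. A zero for one of these genes therefore covers only part of its transcript. The 287 could receive no count under the rule used, so they fall in this class by that rule. For other genes with shared exons, dropped reads lower the RPKM, which uses the full exon length. Part of the difference in shares between the classes thus follows from the same rule. The genes IGF2, CYP17A1, ALDOA and CYP51A1 are expressed genes with shared exons, with levels over the unshared part of 33.2 RPKM for IGF2 and 36.0 RPKM for CYP17A1.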
